A study of Mus musculus with 12 samples.

Results

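The glycolysis enzymes examined here were chosen by symbol: Pfkp, Aldoa, Tpi1, Gapdh, Pgk1, Ldha and Ldhb from a list of 9, in a table of 11385 genes. The other listed enzymes, Hk1 and Eno1, are not analysed here, so all counts below are out of 7. They were followed in 12 libraries of total RNA, each from 50 mouse oocytes arrested at the germinal-vesicle (GV) stage of meiotic prophase and stripped of their cumulus cells by pipetting. The groups were Mfn1&2-/-, lacking both mitofusins, Mfn2-/-, Mfn1-/- and WT, with n = 3 libraries each. Mitofusins, GTPases anchored in the outer membrane of mitochondria, fuse these organelles. All groups are labelled C57BL/6J and came from mice aged 21 to 23 days that had received no hormone priming. Neither the making of the alleles nor the number of animals behind each pool is given in the sources used here. P-values therefore measure the spread between pools, which may be technical.

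Glycolysis splits glucose into pyruvate in the cytosol, and lactate dehydrogenase (LDH) interconverts pyruvate and lactate in either direction. The GV oocyte uses little glucose itself. Granulosa and cumulus cells around it carry out glycolysis and hand it pyruvate, which its mitochondria oxidise. LDH is a tetramer of A subunits (Ldha) and B subunits (Ldhb), and the mouse oocyte is known for a large store of the B form.

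Ldhb stood far above the other 6 enzymes in every library. It was higher in Mfn2-/- than in each of the other groups, and the Mfn1&2-/- oocytes, which also lack Mfn2, lay close to the Mfn1-/- level. Of the 7 enzymes, 2 passed the test in Mfn2-/- against WT, Ldhb and Gapdh, both higher. In that comparison 11.4% of all genes passed in either direction and 4.52% passed as higher. No enzyme passed in edgeR in Mfn1&2-/- against WT, where 4.21% of all genes did, or in Mfn1-/- against WT, where 0.228% did. Passing means an adjusted p below 0.05 in edgeR's quasi-likelihood test (Benjamini-Hochberg over all genes).

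The libraries held 11575357 to 16024893 counts, and 3 counts, the smallest number read here as a level, corresponded to 0.188 to 0.253 CPM, counts scaled to library size. Intervals on shares of counts cover counting error only. Mfn1 averaged 20.1 ± 5.87 CPM in Mfn1&2-/- and 18.1 ± 0.696 CPM in Mfn1-/-, against 280 ± 16.4 CPM in WT (SD, n = 3 each). Mfn2 averaged 10.8 ± 1.31 CPM in Mfn1&2-/- and 11.2 ± 2.19 CPM in Mfn2-/-, against 76.3 ± 9.75 CPM in WT. The targeted genes were thus low where the labels say so. All 14 oocyte markers were measured, with summed levels of 14966 to 16939 CPM in Mfn1&2-/-, 17248 to 19058 in Mfn2-/-, 14342 to 16447 in Mfn1-/- and 13381 to 16377 in WT. WT replicate 3 stood apart in granulosa genes, whose values are given with Ldha below. A difference in CPM is relative to the library, and fewer cells of a type or less RNA per cell cannot be told apart.

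**Figure D1:**
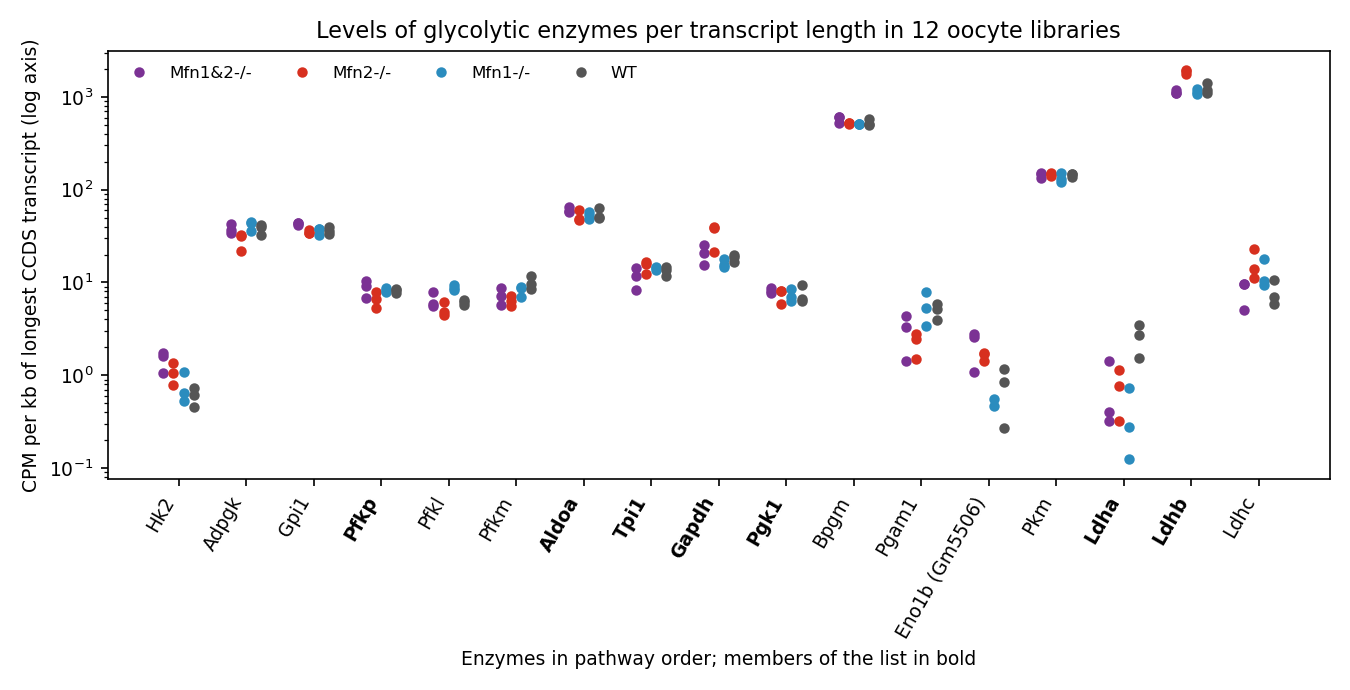
Level of glycolytic enzymes by library (points, the listed enzymes in bold), in CPM per kb of its longest CCDS transcript on a log10 axis, in pathway order with colours for Mfn1&2-/-, Mfn2-/-, Mfn1-/- and WT. Ldhb lies above every other enzyme in all 12 libraries and Ldha is among the lowest; the 1 value of 0, Gm5506 (Eno1b) in Mfn1-/- replicate 3, cannot be drawn on this axis.

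Levels of different genes were compared per kb. By merged exon length Ldhb averaged 1027 ± 139 CPM per kb in WT (SD, n = 3) and ranked 8 of 11292 genes with a length. Aldoa followed at 29.0 ± 4.27 CPM per kb, above 85.3% of genes. Tpi1 at 7.79 ± 0.812, Gapdh at 6.37 ± 0.555 and Pgk1 at 6.07 ± 1.32 CPM per kb lay near the middle of all genes. Pfkp at 2.54 ± 0.114 CPM per kb came next and Ldha at 1.40 ± 0.528 CPM per kb was lowest, above 21.7% of genes. In WT libraries the ranges of Gapdh and Pgk1 overlapped, as did those of Tpi1 and Pgk1, whereas Tpi1 (6.92 to 8.52) and Gapdh (5.76 to 6.84) only just did not. The length of the longest CCDS transcript, below that of the longest transcript for Pfkp and Gapdh, kept Ldhb (1237 CPM per kb), Aldoa (54.5) and Ldha (2.56) in their places. It put Gapdh at 18.6, Tpi1 at 13.4, Pfkp at 8.20 and Pgk1 at 7.47 CPM per kb, so the order of these 4 depends on the length used. Ldhb was 731 times Ldha per kb in WT by merged exons and 483 times by CCDS length.

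Ldhb made up 87.1 to 89.9% of the summed CPM of the 7 enzymes in Mfn1&2-/-, 92.5 to 92.9% in Mfn2-/-, 89.2 to 89.6% in Mfn1-/- and 88.5 to 91.5% in WT. The other 6 together came to 177 to 215.5 CPM in Mfn1&2-/-, 188 to 199 CPM in Mfn2-/-, 172 to 182 CPM in Mfn1-/- and 172 to 202 CPM in WT. Ranges of the 6 overlapped in all pairs of groups except Mfn2-/- and Mfn1-/-.

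The enzymes of the sugar phosphate steps showed no difference that passed the test in any comparison. Pfkp, the platelet-type phosphofructokinase that commits sugar to glycolysis (chromosome 13, 6579768 to 6648777, minus strand, GRCm38), had 38.5, 28.0 and 43.4 CPM in Mfn1&2-/-, 32.7, 27.7 and 22.0 in Mfn2-/-, 32.9, 36.2 and 34.1 in Mfn1-/-, and 35.1, 34.7 and 32.2 in WT. Its lowest library was Mfn2-/- replicate 3, and the Mfn1-/- libraries all lay above the Mfn2-/- libraries, by a log2 difference of 0.33 ± 0.18 (SE; adjusted p = 0.259, edgeR); 16.5% of all genes were higher without overlap there. Aldoa, the aldolase that cuts the 6-carbon sugar into triose phosphates (chromosome 7, 126795234 to 126800751, minus strand), had 88.6, 91.8 and 99.9 CPM in Mfn1&2-/-, 92.7, 75.0 and 72.7 in Mfn2-/-, 88.8, 74.5 and 83.2 in Mfn1-/-, and 76.3, 98.8 and 78.4 in WT. All 4 groups overlapped. Tpi1, which interconverts the triose phosphates (chromosome 6, 124810586 to 124814296, minus strand), had 13.3, 23.1 and 19.0 CPM in Mfn1&2-/-, 26.8, 19.8 and 25.4 in Mfn2-/-, 23.0, 23.3 and 22.2 in Mfn1-/-, and 21.9, 23.4 and 19.0 in WT. Again the groups overlapped, with the lowest value in Mfn1&2-/- replicate 1.

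Pgk1, the phosphoglycerate kinase that makes the first ATP of the pathway (chromosome X, 106187100 to 106203699, plus strand), had 14.0, 16.0 and 14.9 CPM in Mfn1&2-/-, 14.9, 14.7 and 10.6 in Mfn2-/-, 11.6, 15.4 and 12.8 in Mfn1-/-, and 12.2, 11.6 and 17.0 in WT. The highest value was in WT and the groups overlapped. Over Pfkp, Aldoa, Tpi1 and Pgk1, log2 fold changes lay between -0.21 and 0.15 in Mfn1&2-/- against WT, between -0.31 and 0.16 in Mfn2-/- against WT, and between -0.04 and 0.09 in Mfn1-/- against WT. The 95% intervals of these 4 genes reached from -0.69 to 0.65, from -0.73 to 0.63 and from -0.55 to 0.56 in those comparisons, so differences inside these bounds could not be told from none. Intervals of fold changes use 8 degrees of freedom and are wider than the edgeR test implies. Pfkp in Mfn1&2-/- against Mfn2-/- had an interval of -0.003 to 0.83 at an unadjusted p of 0.0361 in edgeR. Pgk1 is an uncertain count: 67.0% of its 100-base transcript windows occur exactly in 3 annotated pseudogenes, and the counting of reads with several matches is not given in the sources used.

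Gapdh, the dehydrogenase that turns glyceraldehyde 3-phosphate into 1,3-bisphosphoglycerate (chromosome 6, 125161715 to 125166467, minus strand), was the other enzyme that rose in Mfn2-/-. It had 22.0, 29.8 and 35.7 CPM in Mfn1&2-/-, 30.6, 55.9 and 55.6 in Mfn2-/-, 25.4, 21.7 and 21.1 in Mfn1-/-, and 23.8, 28.3 and 27.0 in WT. Mfn2-/- replicates 2 and 3 were the highest of all libraries, while Mfn2-/- replicate 1 lay within the Mfn1&2-/- range and just above WT. Gapdh was higher in 3 of 3 Mfn2-/- libraries than in every WT library, as were 16.1% of all genes. It was 1.80-fold higher in Mfn2-/- than in WT, a log2 difference of 0.85 ± 0.22 (SE, adjusted p = 0.0245, edgeR). This call was lost without Mfn2-/- replicate 2 (0.71, adjusted p = 0.104), Mfn2-/- replicate 3 (0.70, 0.106), WT replicate 1 (0.78, 0.0749), WT replicate 2 (0.90, 0.0506) or WT replicate 3 (0.86, 0.0634). Gapdh shares 18.2% of its 100-base windows with 74 other annotated genes, 70 of them pseudogenes, so part of its count is uncertain.

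In Mfn1-/- against Mfn2-/-, 2 of 7 enzymes were lower, against 13.3% of all genes called in either direction and 6.46% called lower, and Gapdh was one of them, at -1.06 ± 0.23 log2 (adjusted p = 0.00628, edgeR). In Mfn1&2-/- against Mfn2-/- its log2 difference was -0.70 ± 0.22 and missed the threshold (adjusted p = 0.0593). That p became 0.0489 without Mfn1&2-/- replicate 3 and 0.0127 without Mfn2-/- replicate 1. Against WT, Gapdh gave 0.15 ± 0.23 in Mfn1&2-/- (adjusted p = 0.797) and -0.21 ± 0.23 in Mfn1-/- (adjusted p = 0.736).

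**Figure D2:**
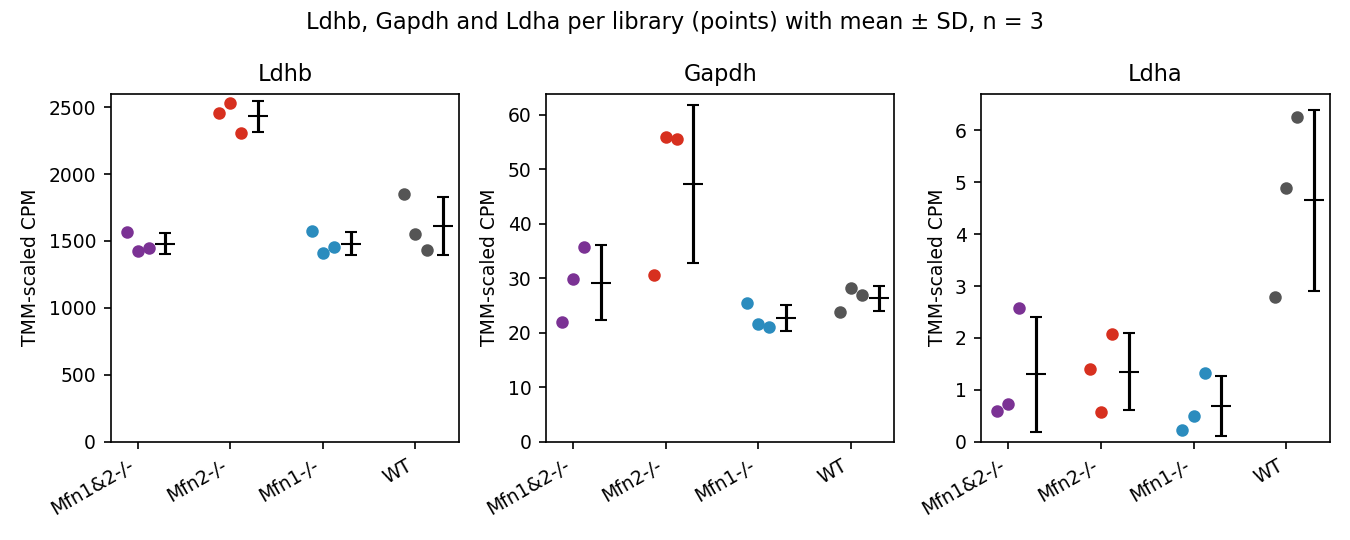
CPM of Ldhb, Gapdh and Ldha by library (points) with the group mean and SD (bars, n = 3), a panel per gene with its own linear axis from 0, for Mfn1&2-/-, Mfn2-/-, Mfn1-/- and WT from left to right. The 3 Mfn2-/- libraries of Ldhb, 2307 to 2532 CPM, lie above the other 9, and all 9 mutant libraries of Ldha lie below the 3 WT libraries.

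Ldhb and Ldha code for the subunits of the same enzyme and were the highest and the lowest of the 7 enzymes per kb. Their promoters are shown because the RNA levels differ so widely. Each is given 5′ to 3′ on the gene's strand, from 250 bases before to 50 bases after the annotated start (RefSeq, GRCm38.p6), with Gapdh, the other enzyme that rose. Capitals mark ACGTG on either strand, a sequence that hypoxia-inducible factors and several E-box factors bind. Other sequences that these factors may bind were not counted, so a count of 0 covers ACGTG alone. CACGTG, the palindromic form of ACGTG, is counted on both strands.
Ldhb promoter, chr6:142507908-142508207, minus strand: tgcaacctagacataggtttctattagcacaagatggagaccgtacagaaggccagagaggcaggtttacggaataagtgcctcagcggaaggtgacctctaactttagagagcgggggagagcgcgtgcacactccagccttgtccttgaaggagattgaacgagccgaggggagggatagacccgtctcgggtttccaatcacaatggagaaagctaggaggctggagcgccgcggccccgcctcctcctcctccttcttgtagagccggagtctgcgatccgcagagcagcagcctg
Ldha promoter, the more upstream of 2 annotated starts, chr7:46845554-46845853, plus strand: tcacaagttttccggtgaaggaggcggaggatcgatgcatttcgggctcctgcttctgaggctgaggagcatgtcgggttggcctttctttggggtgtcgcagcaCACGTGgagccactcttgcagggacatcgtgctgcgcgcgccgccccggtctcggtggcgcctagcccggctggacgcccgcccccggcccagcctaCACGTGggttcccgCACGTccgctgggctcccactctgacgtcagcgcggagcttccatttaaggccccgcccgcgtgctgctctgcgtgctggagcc
Gapdh promoter, chr6:125165724-125166023, minus strand: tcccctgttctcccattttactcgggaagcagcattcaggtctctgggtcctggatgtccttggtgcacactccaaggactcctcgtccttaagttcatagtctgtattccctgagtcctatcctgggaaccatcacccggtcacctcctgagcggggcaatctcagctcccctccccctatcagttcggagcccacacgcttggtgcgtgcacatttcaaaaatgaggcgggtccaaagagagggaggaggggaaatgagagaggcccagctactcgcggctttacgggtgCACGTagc
The Ldha window held 5 matches in 3 places, 2 of them CACGTG, the Gapdh window held 1 and the Ldhb window held 0. The window of the second Ldha start also held 0. Among the enzymes not shown, the Pgk1 window held 2, the Aldoa windows held 0, 1 and 1, and those of Pfkp and Tpi1 held 0. Of 32851 promoter windows of that length, 19.6% held ACGTG and 7.15% held CACGTG. The windows shown for Ldha, Ldhb and Gapdh held 30, 17 and 12 CG dinucleotides, against a median of 7 over all windows. The window of the second Ldha start held 13. Matches describe the letters of these windows, and binding was not measured.

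Ldhb, the heart-type subunit (chromosome 6, 142490249 to 142507957, minus strand), had 1568, 1426 and 1449 CPM in Mfn1&2-/-, 2454, 2532 and 2307 in Mfn2-/-, 1573, 1411 and 1457 in Mfn1-/-, and 1855, 1550 and 1433 in WT. The 3 Mfn2-/- libraries were the highest of the 12, and the other groups overlapped one another. Of the 100-base windows of Ldhb, 8.80% occur exactly in 1 annotated pseudogene. Ldhb was 1.51-fold higher in Mfn2-/- than in WT, 0.59 ± 0.09 log2 (SE; 95% interval 0.38 to 0.81; adjusted p = 0.00109, edgeR). The groups did not overlap; 16.1% of all genes were higher without overlap in that comparison. The call held with each of the 12 libraries left out in turn, at 0.51 to 0.70 log2. In the same comparison 4 of the 14 oocyte markers were higher and 0 lower, with a median of 0.27 log2 over the 14. As higher, 4.52% of all genes passed there. With single libraries left out, 2 to 5 of the 14 passed. The part of these markers in the Ldhb difference was not tested.

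Ldhb was lower than in Mfn2-/- in both groups that lack Mfn1. It was -0.71 ± 0.09 log2 in Mfn1&2-/- against Mfn2-/- (adjusted p = 0.000408, edgeR), the single one of 7 enzymes called there, where 10.2% of all genes were called and 4.08% were lower. It was -0.72 ± 0.09 log2 in Mfn1-/- against Mfn2-/- (adjusted p = 0.000222). These comparisons share the Mfn2-/- libraries. Oocyte markers were lower in both as well, 4 of 14 in Mfn1&2-/- with a median of -0.245 log2 and 8 of 14 in Mfn1-/- with a median of -0.37. As lower, 4.08% and 6.46% of all genes passed there. With single libraries left out, 1 to 6 of the 14 passed in Mfn1&2-/- and 3 to 8 in Mfn1-/-. The part of these markers in the Ldhb differences was not tested. Between Mfn1&2-/- and Mfn1-/- the log2 difference was 0.00 ± 0.09 (95% interval -0.22 to 0.22). In edgeR 0 of 7 enzymes passed there, against 5.36% of all genes. An unadjusted p below 0.05 was found for 0 of 7, against 2360 of all 11385 genes. DESeq2 called 0 of 7, against 1044 of all genes. Against WT, Ldhb gave -0.12 ± 0.09 log2 in Mfn1&2-/- (adjusted p = 0.544) and -0.12 ± 0.09 in Mfn1-/- (adjusted p = 0.627).

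Whether the loss of both mitofusins gave the sum of the single losses was tested as an interaction on the log2 scale. Ldhb was the 1 enzyme of 7 called, at -0.59 ± 0.13 (95% interval -0.90 to -0.28; adjusted p = 0.0241, edgeR), against 4.13% of all genes called and 1.20% called lower. The level in Mfn1&2-/- was therefore below the sum of the single differences. The call was lost without Mfn1&2-/- replicate 2 (adjusted p = 0.063), Mfn2-/- replicate 2 (0.065), Mfn1-/- replicate 1 (0.0578), WT replicate 2 (0.0594) or WT replicate 3 (0.0569), at -0.51 to -0.56 log2. For Gapdh the interaction was -0.48 ± 0.32 (adjusted p = 0.411).

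**Figure D3:**
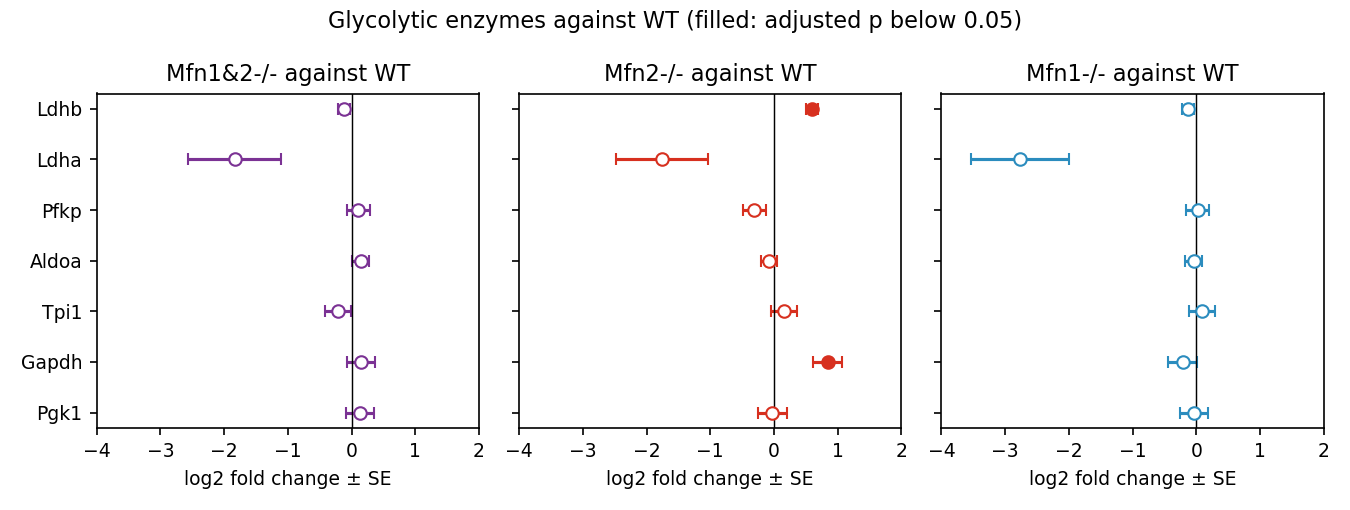
Log2 fold change (points) and SE (bars) of each of the 7 enzymes against WT from the edgeR fit, with panels for Mfn1&2-/-, Mfn2-/- and Mfn1-/- from left to right; filled points have an adjusted p below 0.05. The filled points are Ldhb and Gapdh in Mfn2-/-, and Ldha has the largest SE.

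Ldha, the muscle-type subunit (chromosome 7, 46841475 to 46855627, plus strand), was low in all groups. It had 7, 11 and 34 counts in Mfn1&2-/- (0.589, 0.723 and 2.57 CPM), 21, 7 and 31 in Mfn2-/- (1.40, 0.581 and 2.08 CPM), 3, 8 and 16 in Mfn1-/- (0.226, 0.502 and 1.33 CPM), and 35, 58 and 75 in WT (2.80, 4.89 and 6.26 CPM). Every WT library lay above every mutant library. The log2 difference from WT was -1.84 ± 0.73 in Mfn1&2-/- (unadjusted p = 0.0228, adjusted p = 0.178), -1.76 ± 0.72 in Mfn2-/- (0.0269 and 0.129) and -2.76 ± 0.77 in Mfn1-/- (0.00249 and 0.139), all from edgeR, so none passed. DESeq2 called the Mfn1-/- difference (adjusted p = 0.0232) and neither of the others. These 3 comparisons share the WT libraries. The shares of all genes lower than WT without overlap were 10.8%, 15.9% and 8.84% in the same order of genotypes.

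Of 14 granulosa markers 11 were measured, and 8 of the 11 were highest in WT replicate 3, which also had the highest Ldha. Their summed level ran from 490 to 514 CPM in Mfn1&2-/-, 442 to 542 CPM in Mfn2-/-, 499 to 514 CPM in Mfn1-/- and 515 to 893 CPM in WT. Serpine2, a protease inhibitor that was at 276 to 371 CPM in every library, made up much of these sums. With it the groups overlapped, Mfn2-/- replicate 3 at 542 CPM lying above WT replicates 1 and 2 at 537 and 515 CPM. Without it, a choice made after its values were seen, the other 10 summed to 148 to 155 CPM in Mfn1&2-/-, 153 to 177 CPM in Mfn2-/-, 160 to 181 CPM in Mfn1-/- and 187 to 523 CPM in WT, and in that sum each WT library was above all mutant libraries. Of the 11 markers, 2 passed as lower in Mfn1&2-/- against WT, 4 in Mfn2-/- and 0 in Mfn1-/- in edgeR. As lower, 2.11%, 6.87% and 0.158% of all genes passed in these comparisons. With single libraries left out, 1 to 4 of the 11 passed in Mfn1&2-/-, 0 to 5 in Mfn2-/- and 0 in Mfn1-/-. DESeq2 called 4 lower in Mfn1&2-/- and 4 in Mfn2-/-, against 834 and 1690 of all genes called in either direction. In Mfn1-/- 5 of the 11 had an unadjusted p below 0.05, against 1456 of all 11385 genes, and DESeq2 called 0, against 224. Inhba, an activin and inhibin subunit of granulosa cells, had 1.84, 5.31 and 71.3 CPM in the WT libraries. Fshr, the FSH receptor, was at 0 in Mfn1&2-/- replicate 1 and WT replicate 1, and Fst was at 0 in Mfn1-/- replicate 1. Of 6 theca markers 1 was measured, Hsd3b1, a steroid dehydrogenase, which was highest in WT replicate 3 at 44.9 CPM. The part of these genes in the Ldha difference was not tested. Without WT replicate 3 the Ldha log2 difference from WT was -1.56 in Mfn1&2-/- (adjusted p = 0.367, edgeR), -1.49 in Mfn2-/- (0.313) and -2.49 in Mfn1-/- (0.344). With each of the 12 libraries left out in turn it ran from -2.80 to -1.5 in Mfn1&2-/-, from -2.21 to -1.42 in Mfn2-/- and from -3.62 to -2.34 in Mfn1-/-, and none of these values passed in edgeR. The lowest value in Mfn1&2-/- came without Mfn1&2-/- replicate 3, and that in Mfn1-/- without Mfn1-/- replicate 3.

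**Figure D4:**
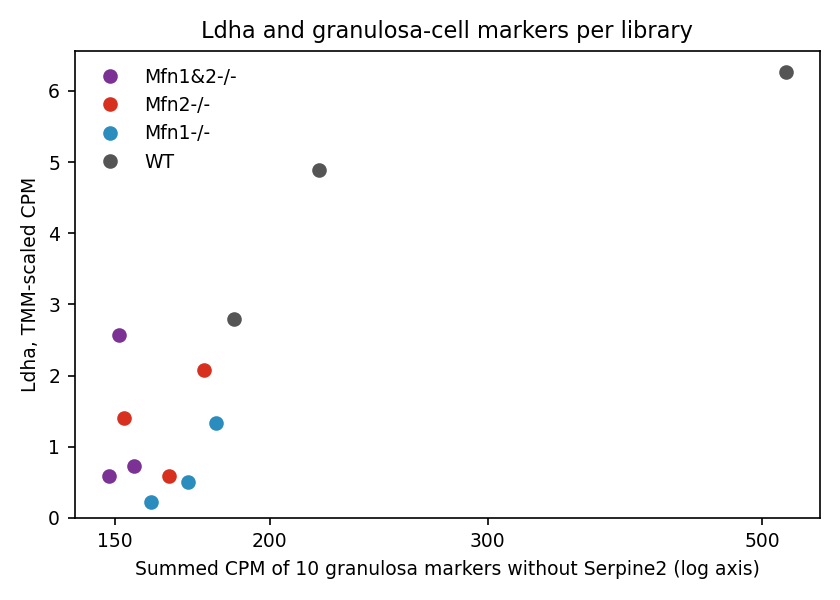
Ldha in CPM (y axis) against the summed CPM of 10 granulosa markers without Serpine2 (x axis, log scale) in each of the 12 libraries, coloured for Mfn1&2-/-, Mfn2-/-, Mfn1-/- and WT. The 3 WT libraries, at 2.80 to 6.26 CPM of Ldha and 187 to 523 CPM of markers, are highest on both axes. Serpine2 was left out after its values were seen, and with it the groups overlap in the marker sum.

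As a share of Ldha plus Ldhb per kb, Ldhb was 99.958 ± 0.0367% in Mfn1&2-/-, 99.973 ± 0.0159% in Mfn2-/-, 99.978 ± 0.0189% in Mfn1-/- and 99.857 ± 0.068% in WT (SD, n = 3 each). This share leaves out Ldhc, the testis-type LDH subunit, which was above Ldha per kb, at 7.08 ± 2.35 CPM per kb in Mfn1&2-/-, 13.9 ± 5.41 in Mfn2-/-, 10.9 ± 3.93 in Mfn1-/- and 6.80 ± 2.13 in WT. With Ldhc counted too, an alternative chosen after its values were seen, the Ldhb share was 99.2 ± 0.297% in Mfn1&2-/-, 99.09 ± 0.301% in Mfn2-/-, 98.85 ± 0.323% in Mfn1-/- and 99.21 ± 0.0469% in WT. WT thus had the lowest mean share without Ldhc but not with it. In single libraries Ldha ran from 0.0143% of the Ldha plus Ldhb counts (95% Wilson interval 0.00488 to 0.0422%) in Mfn1-/- replicate 1 to 0.435% (0.347 to 0.545%) in WT replicate 3. Without Ldhc, the 6 libraries lacking Mfn2 averaged 99.966% Ldhb and the 6 with Mfn2 averaged 99.918%, a difference of 0.0481 percentage points that an exact two-sided permutation test did not separate from the spread (p = 0.232). The 6 libraries with Mfn2 mix WT and Mfn1-/-, so the difference between those groups counts as spread in this test, and its p does not show that the shares are alike.

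Over the 7 enzymes the median log2 fold change was 0.11 in Mfn1&2-/-, -0.03 in Mfn2-/- and -0.04 in Mfn1-/- against WT, where the median of all genes was 0.00, 0.01 and -0.01. In Mfn1&2-/- and in Mfn1-/-, 1 of 7 enzymes, Ldha, had an unadjusted p below 0.05 against WT, as did 2119 and 1456 of all 11385 genes. DESeq2 called 0 of 7 in Mfn1&2-/- and 1 of 7 in Mfn1-/-, against 834 and 224 of all genes. Each of these comparisons held fold changes of both signs among the 7.

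The remaining enzymes of the pathway came from a list of 31 genes, 16 of them measured. None of the 16 passed in edgeR in Mfn1&2-/- against WT (5 at an unadjusted p below 0.05, 1 by DESeq2) or in Mfn1-/- against WT (2 and 0), and in Mfn2-/- against WT 0 were higher and 1 was lower, with a median of 0.00 log2. In that last comparison 8 of the 16 had an unadjusted p below 0.05 and DESeq2 called 2 higher and 3 lower. Of all 11385 genes 2119, 1456 and 2965 had an unadjusted p below 0.05 in these comparisons, in the order given. DESeq2 called 834, 224 and 1690 of all genes, and edgeR called 11.4% in the last. The gene that edgeR called lower in Mfn2-/- was Pfkfb3, which makes fructose 2,6-bisphosphate, the activator of phosphofructokinase. It averaged 36.9 ± 7.92 CPM in Mfn1&2-/-, 25.1 ± 0.817 CPM in Mfn2-/-, 63.5 ± 8.95 CPM in Mfn1-/- and 48.2 ± 7.25 CPM in WT (SD, n = 3 each). Its log2 difference was -0.94 ± 0.17 in Mfn2-/- against WT (adjusted p = 0.00311, edgeR) and -0.78 ± 0.17 in Mfn1&2-/- against Mfn1-/- (adjusted p = 0.0144), so it was lower where Mfn2 was missing in both comparisons. The first of these calls held with each library left out, and the second was lost without Mfn1-/- replicate 1 (-0.64 log2, adjusted p = 0.0701). In Mfn1-/- against Mfn2-/- 5 of the 16 passed, as did 13.3% of all genes. Pfkfb3 (1.34), Pgam1 (1.31), Pfkl (0.77) and Adpgk (0.55) were higher in Mfn1-/- than in Mfn2-/- and Pfkfb2 (-0.99) was lower, in log2. Of these, the Pfkfb3 call alone held with every library left out in turn. Between 2 and 5 of the 16 passed then, and Pgam1 lost its call in 8 of the 12 cases. Of the 100-base windows of Pgam1, 39.7% occur exactly in 2 annotated pseudogenes, so its count is uncertain.

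Bpgm, the mutase that makes 2,3-bisphosphoglycerate and is best known from red cells, was the highest of the 16. It averaged 1278 ± 96.0 CPM in Mfn1&2-/-, 1148 ± 24.6 CPM in Mfn2-/-, 1130 ± 7.23 CPM in Mfn1-/- and 1177 ± 80.9 CPM in WT, and at 328 CPM per kb of merged exon it ranked 50 of 11292 genes in WT. Pkm, the pyruvate kinase of the last step, followed at 351 ± 24.5 CPM in Mfn1&2-/-, 356 ± 16.0 CPM in Mfn2-/-, 329 ± 39.2 CPM in Mfn1-/- and 352 ± 16.6 CPM in WT. Gpi1, the phosphoglucose isomerase, ran from 92.9 to 127.5 CPM over all libraries. Hk2, a hexokinase of the first step, ran from 2.51 to 9.69 CPM. It averaged 8.13 ± 1.99 CPM in Mfn1&2-/-, 5.90 ± 1.62 CPM in Mfn2-/-, 4.14 ± 1.61 CPM in Mfn1-/- and 3.30 ± 0.773 CPM in WT. The Mfn1&2-/- and the Mfn2-/- libraries all lay above the WT libraries, and neither difference passed in edgeR. Of all genes 11.3% and 16.1% were higher without overlap in these comparisons. Eno1b, an enolase gene listed as Gm5506, ran from 0 to 5.00 CPM, and 73.4% of its windows are shared with other genes. Ldhc ran from 6.90 to 31.6 CPM. Of the measured enzymes of the pathway, Ldhb, Bpgm and Pkm thus had the highest messages.

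Of 20 genes for glucose, lactate and pyruvate transport 10 were measured and 0 passed in edgeR in Mfn1&2-/- (2 at an unadjusted p below 0.05, 0 by DESeq2), Mfn2-/- (4 and 1) or Mfn1-/- (2 and 0) against WT. Of all genes 4.21%, 11.4% and 0.228% passed in edgeR in these comparisons. In the same order 2119, 2965 and 1456 of all 11385 genes had an unadjusted p below 0.05, and DESeq2 called 834, 1690 and 224. Slc16a1, a carrier of lactate and pyruvate, averaged 43.1 ± 7.91 CPM in Mfn1&2-/-, 59.4 ± 6.79 CPM in Mfn2-/-, 46.2 ± 0.966 CPM in Mfn1-/- and 47.5 ± 4.38 CPM in WT. Slc2a1, the glucose carrier GLUT1, averaged 45.2 ± 3.67 CPM in Mfn1-/- and 31.1 ± 1.80 CPM in Mfn2-/-, a log2 difference of 0.54 ± 0.16 (adjusted p = 0.0389, edgeR). That call was lost when any 1 of the 6 libraries compared was left out (adjusted p up to 0.114). Slc2a13, by -1.54 log2, and Slc2a9, by -1.88 log2, were lower in Mfn1-/- than in Mfn2-/-, the Slc2a9 call being lost without Mfn2-/- replicate 3 or Mfn1-/- replicate 1. Of 14 genes of the pyruvate dehydrogenase complex, its regulators and pyruvate carboxylase 12 were measured, and 1, Pdhx, which anchors a subunit of the complex, was higher in Mfn2-/- than in WT. It averaged 206 ± 15.8 CPM in Mfn2-/- and 156 ± 3.32 CPM in WT, 0.40 ± 0.09 log2 (adjusted p = 0.00891, edgeR), a call lost without Mfn2-/- replicate 3 (0.34, adjusted p = 0.0597). None of the 12 passed in edgeR in Mfn1&2-/- (4 at an unadjusted p below 0.05, 1 by DESeq2) or Mfn1-/- (1 and 0) against WT.

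Genes were also ranked by how closely their centred log2 CPM followed Ldhb over the 12 libraries, measured as the root mean square (RMS) difference. The nearest were Adss at 0.0844, Tm7sf3 at 0.0894 and Txnip at 0.0941, against 0.311 for the RMS of Ldhb about its own mean. Adss, an adenylosuccinate synthase, averaged 379 ± 31.3 CPM in Mfn1&2-/-, 616 ± 27.5 CPM in Mfn2-/-, 379 ± 12.4 CPM in Mfn1-/- and 391 ± 56.4 CPM in WT. Txnip averaged 545 ± 47.7 CPM in Mfn1&2-/-, 858 ± 86.8 CPM in Mfn2-/-, 512 ± 17.8 CPM in Mfn1-/- and 589 ± 62.9 CPM in WT. These genes were selected for following Ldhb, so their shared pattern is a description. The nearest to Gapdh, Nfkbia at 0.238, Ndufb10 at 0.239 and Cybasc3 at 0.240, followed it less closely, against 0.458 for the RMS of Gapdh itself.

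**Figure D5:**
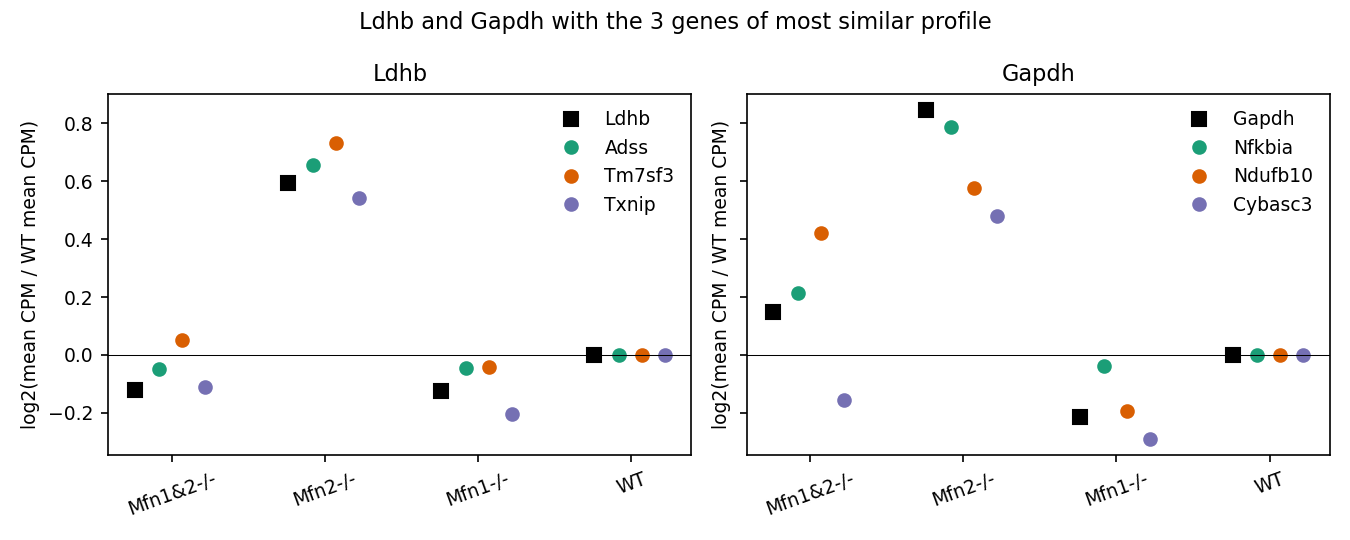
Log2 of the group mean CPM over the WT mean (y axis) for Ldhb and Gapdh (squares) and the 3 genes nearest to each by RMS difference (circles), with Mfn1&2-/-, Mfn2-/-, Mfn1-/- and WT from left to right. The neighbours were chosen for likeness, so the shared peak of Ldhb and its 3 neighbours in Mfn2-/- follows from the choice.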

How the data were processed

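Total RNA of pools of 50 oocytes was extracted, depleted of ribosomal RNA and made into stranded libraries read as 100 bp pairs, per the labels. Per the submitters' processing notes, the tools were STAR 2.7.0a with the mm10 genome, edgeR and FastQC 0.11.7. The deposited table of raw counts per gene was the base of every value. The deposited signal table of CPM equalled TMM-scaled CPM computed from those counts within a relative 5.1e-15. Not given in the sources used here are the gene annotation, the use of strand, and how reads with several matches were counted.

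Counts of 11385 genes received TMM factors and entered an edgeR 4.0.16 fit under R 4.3.3 (quasi-likelihood, 1 mean per group, all 12 libraries, 8 residual degrees of freedom). The SE of a log2 fold change is its size over the root of F. filterByExpr kept all 11385 genes and so all 7 enzymes. In all, 7 comparisons were tested, and the fit was checked on simulated counts. Of simulated 1.5-fold rises, 42% were recovered in Mfn1&2-/- against WT, 44% in Mfn2-/- and 34% in Mfn1-/-. Of 2-fold rises 72%, 82% and 74% were recovered, and of falls to 0.5-fold 76%, 60% and 70%, in the same order. Rises of 4-fold were recovered at 100% in each. A missing call therefore does not show that a change of 1.5-fold to 2-fold was absent. Positions and lengths come from GENCODE vM21, which located 11292 symbols, 574 by an older name. Libraries were not paired by number in the main fit. Same-numbered replicates correlated at -0.162 to 0.221, and libraries whose descriptions open with the same number at -0.127 to 0.194. These values cannot exclude a shared origin. No 2 libraries of a group agreed within sampling noise. One library whose genotype is spelled "Mn2-/-" was placed in Mfn2-/- by its description.

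Named genes are all enzymes of the list, the targeted genes, and from each further list genes with an adjusted p below 0.05 or a high level; some of these are given as counts only. The enzymes and lists were chosen with earlier results of these data known. Ldhc, Hk2 and Gm5506 were named after their values were seen. Alternatives were DESeq2 1.42.0, limma-voom (limma 3.58.1), other scalings, filters and lengths, blocks on the replicate and description numbers, and each library left out in turn.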

Additional observations from a re-analysis of the deposited data

Results flagged for a closer look

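For 1 of the 7 enzymes and 2 of the 72 genes of the further lists the difference made by losing Mfn2 was not the same with and without Mfn1, by the interaction term of the edgeR fit (Benjamini-Hochberg over all genes), against 4.13% of all genes. Ldhb had an interaction of -0.59 log2 (adjusted p = 0.0241), higher in Mfn2-/- than in WT and with a log2 difference of 0.00 between Mfn1&2-/- and Mfn1-/-. G6pdx, the first enzyme of the pentose phosphate pathway, had an interaction of 0.44 ± 0.11 log2 (adjusted p = 0.0416). It averaged 902 ± 39.0 CPM in Mfn1&2-/-, 758 ± 40.4 CPM in Mfn2-/-, 779 ± 27.4 CPM in Mfn1-/- and 886 ± 55.0 CPM in WT (SD, n = 3 each), so the means of both single mutants lay below those of the other groups. Gpd1l, a glycerol 3-phosphate dehydrogenase, had an interaction of -1.64 ± 0.44 log2 (adjusted p = 0.0494). It averaged 56.2 ± 20.5 CPM in Mfn1&2-/-, 139 ± 7.46 CPM in Mfn2-/-, 77.5 ± 34.7 CPM in Mfn1-/- and 61.8 ± 17.7 CPM in WT. With single libraries left out in turn, the call was lost in 10 of 12 cases for G6pdx and in 9 of 12 for Gpd1l, with adjusted p up to 0.121 and 0.106, and log2 values of 0.39 to 0.48 and of -1.98 to -1.37.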

How the results depend on the processing

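Of 246 recomputed fold changes of the enzymes that carried a call or an unadjusted p below 0.05, 226 kept direction and side of the threshold, 16 lost the call, 4 gained it and 0 reversed. The other 37 enzyme fold changes gave 769 recomputed values, with 41 changes of sign and 0 calls. The count of enzymes called became 1 in Mfn1-/- against WT (Ldha) and 2 in Mfn1&2-/- against Mfn2-/- (Ldhb and Gapdh) with DESeq2. Leaving out single libraries gave 1 to 2 calls in Mfn2-/- against WT, 1 to 2 in Mfn1&2-/- against Mfn2-/-, 2 to 2 in Mfn1-/- against Mfn2-/-, 0 to 1 for the interaction, and 0 to 0 in Mfn1&2-/- against WT, Mfn1-/- against WT and Mfn1&2-/- against Mfn1-/-. The difference in the Ldhb share of Ldha plus Ldhb ran from 0.0232 to 0.0632 points then, and was 0.115 points (exact permutation p = 0.504) with Ldhc counted in the share. With the replicate block, which the numbers do not justify as a pairing, the enzymes called were 2 in Mfn2-/- against WT and the same as without it elsewhere, while calls over all genes came to 1082 against 1297 there and to 276 against 470 for the interaction. Groups also share the number that opens a sample's description, whose meaning the labels do not give. Pairs with the same such number correlated at -0.127 to 0.194, 1 of 6 pairs above 0.1, and other pairs at -0.304 to 0.235. So few pairs cannot show whether the libraries share more than this number. A fit with it as a block, added after seeing the data, left 2 residual degrees of freedom and called 0 enzymes in each of the 7 comparisons, against 2 in Mfn2-/- against WT, 1 in Mfn1&2-/- against Mfn2-/-, 2 in Mfn1-/- against Mfn2-/- and 1 for the interaction. Over all genes it called 37, 18, 92 and 0 there, against 1297, 1163, 1515 and 470, and 88, 1 and 78 in Mfn1&2-/- against WT, Mfn1-/- against WT and Mfn1&2-/- against Mfn1-/-, against 479, 26 and 610. Fitting only the groups compared called 13 genes against 26 in Mfn1-/- against WT. DESeq2 called 224 genes against 26 there, 834 against 479 in Mfn1&2-/- against WT, 1044 against 610 in Mfn1&2-/- against Mfn1-/-, and 902 against 470 for the interaction. Levels in WT moved with the length used: by the longest transcript they were 3.92 CPM per kb for Pfkp, 54.5 for Aldoa, 13.4 for Tpi1, 8.01 for Gapdh, 7.47 for Pgk1, 2.56 for Ldha and 1237 for Ldhb, and by the longest CCDS transcript, an alternative chosen after seeing the data, 8.20, 54.5, 13.4, 18.6, 7.47, 2.56 and 1237. Scaling by library size alone shifted the all-gene interaction median by -0.11 log2. A filter at 5 CPM left 6 enzymes, without Ldha, whose counts of 3 to 75 limit its precision. The counts per further list with libraries left out or by DESeq2 were added after seeing the data. The cause of these changes was not tested beyond the lengths and filters themselves.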

Other observations

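Over the 6 further lists together 72 genes were measured, of which 6 were higher and 5 lower in Mfn2-/- than in WT (15.3%, against 11.4% of all genes), 1 was higher and 0 lower in Mfn1&2-/- (against 4.21% of all genes), and 0 passed in Mfn1-/- in edgeR (9 at an unadjusted p below 0.05, 0 by DESeq2). DESeq2 called 10 higher and 9 lower in Mfn2-/-, and 2 higher and 2 lower in Mfn1&2-/-. With single libraries left out, 6 to 13 passed in Mfn2-/- and 0 to 3 in Mfn1&2-/-. In the pentose phosphate pathway, which makes NADPH and ribose phosphates, 12 of 13 genes were measured. Pgd, which gave 0.74 ± 0.20 log2 (adjusted p = 0.0278), and Tktl2, which gave 0.68 ± 0.20 (0.0369), were higher in Mfn2-/- than in WT. Rpia, at -0.67 ± 0.14 (0.0071), and Prps2, at -4.51 ± 1.14 (0.0192), were lower. The Rpia call held with every library left out in turn, and the Pgd, Tktl2 and Prps2 calls were lost in 5, 5 and 3 of 12 cases. Pgd lies 1.25 Mb from Mfn2 on chromosome 4, and the part of that position was not tested. Prps2 averaged 8.45 ± 11.6 CPM in Mfn1&2-/-, 0.599 ± 0.369 CPM in Mfn2-/-, 8.41 ± 1.85 CPM in Mfn1-/- and 13.4 ± 11.6 CPM in WT, with a wide spread between libraries of a group.

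Of 16 regulators 13 were measured. Txnip, a thioredoxin-binding protein that lowers glucose uptake, gave 0.54 ± 0.10 log2 in Mfn2-/- against WT (adjusted p = 0.00315, edgeR), with every library left out in turn still called. Arnt, the partner of the hypoxia-inducible factors, gave 0.73 ± 0.12 in Mfn2-/- (0.0019) and 0.52 ± 0.12 in Mfn1&2-/- (0.0265) against WT; the first call held with every library left out and the second was lost in 4 of 12 cases. Mlx, the partner of the glucose-sensing factors Mlxip and Mlxipl, gave -0.59 ± 0.16 in Mfn2-/- (0.0264), a call lost in 4 of 12 cases. Epas1 gave -2.73 ± 0.67 in Mfn2-/- (0.0158), with 27.3 CPM in WT replicate 3, the library highest in granulosa genes, against 5.75 and 6.58 CPM in the other WT libraries. Without WT replicate 3, and also without Mfn2-/- replicate 1 or 2, that call was lost, with values of -3.47 to -1.64 over all libraries left out. In the shuttles that carry cytosolic NADH electrons into mitochondria 9 of 10 genes were measured, and 1, Gpd1l, was higher in Mfn2-/- than in WT, at 1.17 ± 0.31 (0.0249), a call lost in 5 of 12 cases.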
